A study of Mus musculus with 9 samples.

Results

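The Meis, Pbx, Pknox and Tgif genes were examined in the accessible chromatin of the early mouse heart. The 9 genes were Meis1, Meis2, Meis3, Pknox1, Pknox2, Pbx2, Pbx3, Pbx4 and Tgif1, and their regions were all distinct rows of the wild-type list in which the deposited gene symbol was that of a member. They had 24 of the 17164 accessible regions, on 8 of the 11541 genes named in the list, and Pbx2 had none. The regions of the 9 genes covered 35462 bp in sum.

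The assay was ATAC-Seq, which uses the transposase Tn5 to place sequencing adapters in DNA that is not wrapped in nucleosomes. Pharyngeal mesoderm and hearts were dissected from mouse embryos at embryonic day 8.75 (6 somites), with 3 libraries each of the genotypes wt, Isl1-/- and Isl1Cre+/-/ Brg1fl/fl, to ask what Isl1 and the chromatin remodeler Brg1 contribute to open chromatin in cardiac progenitors. In the last genotype the recombinase is driven by Isl1, so Brg1 is lost in cells that have expressed Isl1. The regions described here are those of the wt group, which carries neither mutation, and the mutant groups were not analysed here. The list gives a position, a distance and a gene for each region shared by the 3 wt libraries, but no read count, so sequencing depth is unknown, no value has a replicate error, and no test between samples could be made. Shares of the whole list are given for reading the counts of the members and are not tests.

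TALE proteins are homeodomain transcription factors with an extended loop between the helices of the homeodomain. Meis and Pknox proteins bind DNA together with Pbx proteins, Pbx proteins also pair with Hox proteins, and these complexes pattern the hindbrain, the limbs, the pharyngeal arches and the outflow tract of the heart. Tgif1 acts differently, as a repressor that recruits corepressors to Smad and retinoid target genes.

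The sequences that the results below turn on are shown here, each in the genome build of the list (mm9) unless stated, on the strand from which the gene is transcribed. The first pair is the central 300 bp of the regions just beyond the 3′ ends of Meis1 (chr11:18777285-18777584, minus strand) and Meis2 (chr2:115685719-115686018, minus strand), shown because these regions were wide and rich in CpG for their deposited distance from the start. Capitals mark CpG.
Meis1 3′: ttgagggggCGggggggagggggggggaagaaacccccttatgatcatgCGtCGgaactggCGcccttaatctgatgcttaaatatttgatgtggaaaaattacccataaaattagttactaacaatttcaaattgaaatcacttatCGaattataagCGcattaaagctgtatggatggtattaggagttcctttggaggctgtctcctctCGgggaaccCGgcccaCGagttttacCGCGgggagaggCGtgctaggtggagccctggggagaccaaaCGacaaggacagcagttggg
Meis2 3′: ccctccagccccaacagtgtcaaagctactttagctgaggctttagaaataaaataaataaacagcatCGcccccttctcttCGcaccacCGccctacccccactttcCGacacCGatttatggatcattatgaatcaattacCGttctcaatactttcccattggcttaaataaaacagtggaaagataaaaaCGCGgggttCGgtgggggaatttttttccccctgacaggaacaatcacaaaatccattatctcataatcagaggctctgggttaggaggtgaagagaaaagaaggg

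The next 3 sequences are the central 300 bp of intronic regions assigned to Meis2 (chr2:115836156-115836455, minus strand), Pknox2 (chr9:36914694-36914993, minus strand) and Tgif1 (chr17:71143655-71143954, minus strand), shown because they hold letters searched for below. Capitals mark CTAATG in the Meis2 sequence, TGACAG in the Pknox2 sequence, and TGACAG and AGATAA in the Tgif1 sequence, on either strand.
Meis2 intron: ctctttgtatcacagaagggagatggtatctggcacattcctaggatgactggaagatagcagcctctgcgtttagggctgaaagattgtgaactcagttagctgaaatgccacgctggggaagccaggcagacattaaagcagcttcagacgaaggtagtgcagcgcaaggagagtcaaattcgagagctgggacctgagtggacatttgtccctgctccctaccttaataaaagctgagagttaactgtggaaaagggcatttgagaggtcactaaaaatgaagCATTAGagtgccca
Pknox2 intron: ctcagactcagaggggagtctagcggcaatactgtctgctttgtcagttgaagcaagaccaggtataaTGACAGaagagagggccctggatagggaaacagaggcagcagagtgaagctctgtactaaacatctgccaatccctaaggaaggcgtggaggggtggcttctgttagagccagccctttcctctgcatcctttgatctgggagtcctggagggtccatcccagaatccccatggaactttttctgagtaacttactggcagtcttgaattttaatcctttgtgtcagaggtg
Tgif1 distal: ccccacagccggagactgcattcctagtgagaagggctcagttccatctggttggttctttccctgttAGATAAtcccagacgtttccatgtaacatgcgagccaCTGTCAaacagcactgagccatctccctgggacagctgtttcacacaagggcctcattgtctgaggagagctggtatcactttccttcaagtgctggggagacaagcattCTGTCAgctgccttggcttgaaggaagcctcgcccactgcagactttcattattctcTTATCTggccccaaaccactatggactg

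Start regions of related members shared short blocks. In the 58 bases of coding exon shown next, the region at the start of Pbx3 (chr2:34227244-34227301, minus strand) and that at the start of Pbx4 (chr8:72356690-72356747, plus strand) had 51 identical bases (87.9%), which are in capitals.
Pbx3 exon: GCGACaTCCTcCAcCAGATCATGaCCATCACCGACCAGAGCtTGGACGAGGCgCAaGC
Pbx4 exon: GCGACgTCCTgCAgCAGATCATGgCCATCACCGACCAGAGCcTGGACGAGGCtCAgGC

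A block of 25 bases next to the first annotated starts was shared by Meis1 (chr11:18918974-18918998, minus strand) and Meis2 (chr2:115891470-115891494, minus strand), with 24 identical bases (96%) in capitals. Another 84 aligned bases in the 5′ untranslated exons of Meis1 and Meis2 had 68 identical bases (81%).
Meis1 start: TATGGCCACCACtACTTCCGGGTTC
Meis2 start: TATGGCCACCACgACTTCCGGGTTC

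The last pair is the 250 bases upstream of a start that lay outside any listed region, from the RefSeq promoter table (GRCm38.p6), for Pbx2 (chr17:34592009-34592258, plus strand) and for 1 of the 5 Tgif1 starts in that table (chr17:70851735-70851984, minus strand). Capitals mark CpG, of which the Pbx2 sequence holds 27 and the Tgif1 sequence 16. The table matched 6 of the 9 members.
Pbx2 upstream: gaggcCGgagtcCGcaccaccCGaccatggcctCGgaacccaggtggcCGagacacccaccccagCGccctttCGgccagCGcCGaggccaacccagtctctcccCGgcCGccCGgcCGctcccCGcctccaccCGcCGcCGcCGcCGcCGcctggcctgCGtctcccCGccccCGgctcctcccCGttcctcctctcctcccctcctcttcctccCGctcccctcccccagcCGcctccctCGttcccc
Tgif1 upstream: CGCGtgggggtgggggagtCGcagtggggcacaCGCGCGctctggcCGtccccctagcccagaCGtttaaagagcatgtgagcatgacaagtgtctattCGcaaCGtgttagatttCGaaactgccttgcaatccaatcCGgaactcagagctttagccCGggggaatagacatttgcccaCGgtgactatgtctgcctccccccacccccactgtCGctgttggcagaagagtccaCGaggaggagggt

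Most members were in the list. An accessible region was assigned to 8 of the 9 members, while 49.3% of the 21027 protein-coding genes had at least 1. A region within 1 kb of the start, measured from the center of the region, was present for 6 of the 9 members (Meis1, Meis2, Meis3, Pknox1, Pbx3 and Pbx4), against 40.6% of the protein-coding genes. Regions were unevenly spread over the family. Meis1 had 4, Meis2 had 5, Pknox2 had 4 and Tgif1 had 7, which together made 20 of the 24. The other 4 members with a region had 1 each, and all 4 of those lay within 1 kb of the start. At least 4 regions were found for 4 of the 8 members with a region, against 5.28% of the 11541 genes. The loci of these 4 genes were of different kinds. Meis1 and Meis2 had a region over the start and further ones along the locus, while Pknox2 and Tgif1 had no region within 1 kb, as for 25.1% of the 609 genes with at least 4 regions.

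**Figure D1:**
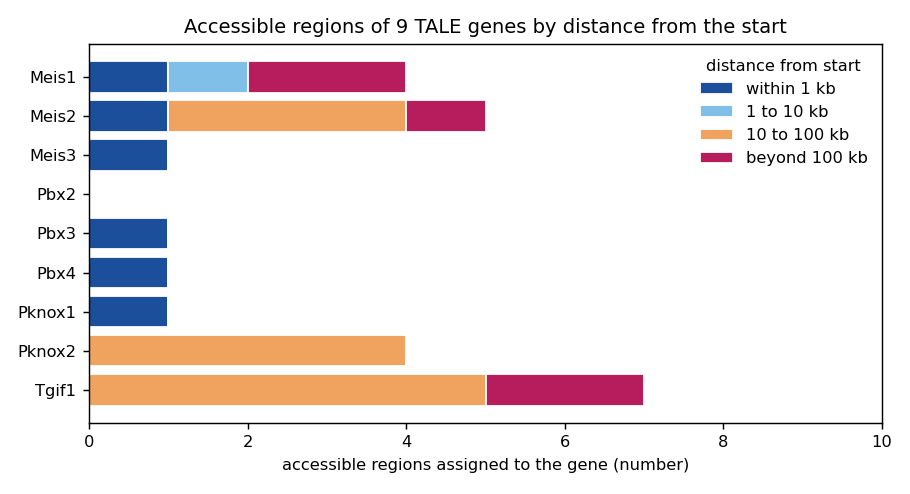
Number of accessible regions (horizontal axis) assigned to each of the 9 genes (vertical axis), colored by the distance of the region's center from the assigned start. Tgif1 has 7 regions, all beyond 10 kb, Pknox2 has 4 between 10 and 100 kb, 4 genes have a single region within 1 kb, and Pbx2 has none.

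Regions of the members lay far from starts more often than regions of the list did. Of the 24 regions, 17 were more than 10 kb from the assigned start (70.8%), against 39.3% of all regions. By class, 6 lay within 1 kb (25% against 52.9% of all regions), 1 between 1 and 10 kb (4.17% against 7.81%), 12 between 10 and 100 kb (50% against 24.4%) and 5 beyond 100 kb (20.8% against 14.9%). All 17 regions beyond 10 kb were downstream of the start, in the direction of transcription, whereas 55.1% of all regions beyond 10 kb were. This count depends on the deposited symbols. Regions 10111, 37793 and 292642 bp upstream of Meis2 were listed under 2810405F15Rik. The first of them lay 146 bp from the start of 2810405F15Rik itself. Regions 55350 bp upstream of Meis1 and 19423 bp upstream of Tgif1 were listed under 4933406G16Rik and Mir1195. The region in a Pknox2 intron listed under Fez1 lay downstream. The 17 came from 4 genes, so they are not independent of each other. Their midpoints fell in introns in 13 cases, in a noncoding exon in 1 and between genes in 3. The midpoint was inside the assigned gene for 7 of them (3 of Meis2 and 4 of Pknox2) and outside it for 10, including all 7 of Tgif1. Among all regions beyond 10 kb whose gene is in the coding annotation, 1545 of 5068 (30.5%) lay within that gene.

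**Figure D2:**
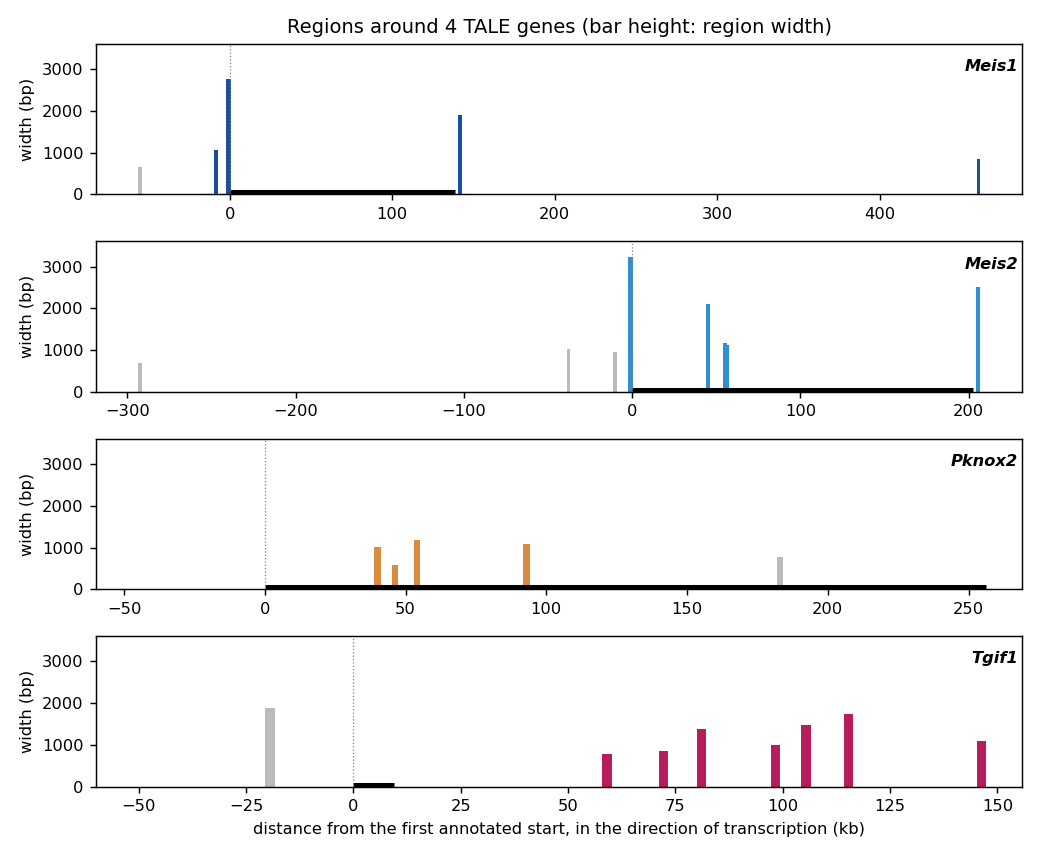
Regions around Meis1, Meis2, Pknox2 and Tgif1 by distance from the first annotated start in the direction of transcription (horizontal axis, kb), with bar height giving region width (vertical axis, bp), bars widened to at least 2.2 kb to be visible, the gene body as a black line, and neighboring regions assigned to another gene in gray. The colored Tgif1 bars all lie beyond the 3′ end of the gene, those of Pknox2 lie inside it away from the start, and Meis1 and Meis2 have tall bars at the start and just past the end of the gene body.

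Meis1, a cofactor of Hox and Pbx proteins that also acts in blood formation and in cardiomyocyte cell cycle exit, is on chr11:18780433-18918961, minus strand. Its start lay in a region of 2762 bp (chr11:18918407-18921168) centered 815 bp upstream of the assigned start. Only 146 of the 9083 regions within 1 kb of a start were wider. A further region of 1060 bp (chr11:18926990-18928049) was centered 8547 bp upstream, and it was the only member region between 1 and 10 kb. It held 4.81 CpG per 100 bp, above 79.8% of regions at that distance. On the opposite side, 1 of 1910 bp (chr11:18776481-18778390) began 2042 bp past the annotated 3′ end, 141537 bp from the start. The last region, of 857 bp (chr11:18457725-18458581), was intergenic and 460819 bp from the start. The nearest annotated coding start to both of these regions was that of Gm16140 (chr11:18909131-18911186), a gene of 2056 bp inside Meis1. The 4 Meis1 regions differed in base composition as well as width. The region past the 3′ end held 4.97 CpG per 100 bp, above 97.6% of the 2550 regions beyond 100 kb, and the far intergenic region held 0.467, above 18.5% of them.

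Meis2, the closest relative of Meis1 and a factor required for outflow tract and craniofacial development, is on chr2:115688800-115891575, minus strand. Its start region was the widest of the 24, with 3217 bp (chr2:115890855-115894071). It also covered annotated starts of the noncoding genes 2700033N17Rik and G630016G05Rik, so accessibility at these starts cannot be separated from that at the Meis2 start. In the whole list 73 regions were wider. Of its 31-mers 7.19% occur elsewhere in the genome, the highest share among the 24. The next regions lay in introns. The intronic region nearest to the start had 2099 bp (chr2:115845475-115847573) at 43831 bp, and 74 of the 4190 regions between 10 and 100 kb were wider. A pair of regions of 1173 bp (chr2:115835720-115836892) and 1111 bp (chr2:115834462-115835572) stood 147 bp apart at 54049 and 55338 bp. The members of this pair were close in width but had 0.853 and 2.25 CpG per 100 bp. As at Meis1, a region lay just past the 3′ end. It measured 2512 bp (chr2:115684614-115687125), began 1674 bp beyond the annotated end and was 204486 bp from the start. Of the 2550 regions beyond 100 kb, 12 were wider, and 95.7% had a lower CpG frequency than its 3.54 per 100 bp. That class follows the deposited transcript: an annotated internal start of Meis2 lay 12810 bp from the region, and of the 4190 regions between 10 and 100 kb, 18 were wider and 88.5% had a lower CpG frequency.

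The regions past the 3′ ends of Meis1 and Meis2 were singled out after their values had been seen. Member regions more than 1 kb from any annotated start numbered 17. This set is not the 17 beyond 10 kb: it includes the Meis1 region 8547 bp upstream and lacks the Tgif1 region over the Gm16952 start. Of this set, 2 began within 5 kb past the 3′ end of their gene, against 3.08% of 5654 such regions in the list. Aligned to each other, these regions shared no block at an E-value below 0.001. The Meis2 sequence printed above also contains 1 TGACAG, 1 TGATTNAT and 2 AGATAA, while the Meis1 sequence contains none of the searched letters.

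Meis3, the member of the family best known from hindbrain patterning, is on chr7:16760729-16771853, plus strand. It had 1 region, of 1489 bp (chr7:16759843-16761331), centered 157 bp upstream of the start. Its 3.69 CpG per 100 bp was the lowest value among the 6 start regions, and it was above only 14.3% of regions within 1 kb of a start. The summed width of the regions was thus 6589 bp for Meis1, 10112 bp for Meis2 and 1489 bp for Meis3.

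Pknox1 and Pknox2, also known as Prep1 and Prep2, pair with Pbx proteins through a domain they share with Meis proteins. They differed from each other in where their regions lay. Pknox1 (chr17:31701718-31744638, plus strand) had 1 region of 1527 bp (chr17:31700879-31702405), centered 76 bp upstream of the start. It was the most CpG-rich member region, with 11.3 CpG per 100 bp, above 98.3% of regions within 1 kb of a start. Pknox2 (chr9:36698570-36954899, minus strand) had no region at its start. The nearest began 39496 bp from the nearest annotated start.

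All 4 Pknox2 regions lay in its own introns. In order along the gene they measured 1022 bp (chr9:36914334-36915355), 589 bp (chr9:36908477-36909065), 1192 bp (chr9:36900289-36901480) and 1082 bp (chr9:36861371-36862452), at 40063, 46136, 54023 and 92996 bp. The region of 589 bp was the narrowest of the 24, and 4000 of the 4190 regions at that distance were wider. A further region in a Pknox2 intron (chr9:36771525-36772305, 781 bp) was listed under Fez1, whose start is 120671 bp from it, while the Pknox2 start is 182936 bp from it.

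Pbx proteins are the shared partners of Meis, Pknox and Hox proteins. Each Pbx gene had at most 1 region, at the start. Pbx3 (chr2:34026977-34228660, minus strand) had 2204 bp (chr2:34227208-34229411), centered 744 bp upstream of the deposited start. That center was inside the annotated gene, 351 bp from its nearest annotated start. The 9.44 CpG per 100 bp of the Pbx3 region was above 92.5% of regions within 1 kb. Pbx4 (chr8:72356523-72397062, plus strand), known for its expression in testis, had 1294 bp (chr8:72355718-72357011), centered 239 bp upstream, with 4.1 CpG per 100 bp. The width of the Pbx4 region was that of the median start region of the list. Pbx3 is a long gene with 201684 bp, but no region was found elsewhere in its body, in contrast to Meis2, which has 202776 bp and 3 intronic regions.

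Pbx2 (chr17:34728211-34734345, plus strand), which is expressed broadly in the embryo, had no assigned region. The nearest region was that of Rnf5 (chr17:34740141-34741710, 1570 bp), which began 7736 bp from the nearest of the 4 annotated Pbx2 starts and 11930 bp from the first. The start of Pbx2 was rich in CpG. In the 500 bp on each side of its richest start it had 7.19 CpG per 100 bp, against a median of 4.7 over 22238 coding genes. Among the 2060 coding genes within 0.5 of its value, 55% had a region within 1 kb. The missing region does not show closed chromatin, since a region had to be found in each of the 3 libraries to be listed.

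Tgif1, a corepressor of Smad proteins whose loss in humans can cause holoprosencephaly, is a short gene on chr17:71193545-71202886, minus strand. It had the most regions of the family, and 54 of the 11541 genes had more. None was at a start. The 7 regions formed a row on the 3′ side of the gene, at deposited distances of 52312, 65448, 74277, 91502, 98697, 108546 and 139574 bp. Those distances count from an internal start of Tgif1, so they are shorter than the distances from the first annotated start drawn in the map of the 4 loci. In the same order the regions measured 777 bp (chr17:71143417-71144193), 868 bp (chr17:71130236-71131103), 1393 bp (chr17:71121144-71122536), 1002 bp (chr17:71104115-71105116), 1479 bp (chr17:71096681-71098159), 1736 bp (chr17:71086704-71088439) and 1107 bp (chr17:71055990-71057096). Width did not fall with distance here: the nearest region was the narrowest, and the widest was the next to last, with 69 of the 2550 regions beyond 100 kb wider.

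All 7 Tgif1 regions lay inside Dlgap1 (chr17:70318413-71170753, plus strand), a gene for a scaffold protein of synapses that runs toward Tgif1. The midpoint was in a Dlgap1 intron for 6 of the 7, and that of the other was in a noncoding exon of Gm16952 (chr17:71094669-71104922, minus strand), whose start this region covered. How they were assigned to Tgif1 is not given in the sources used here, and which gene these regions act on was not tested. By the nearest coding start in the annotation, all 7 stayed with Tgif1. On the upstream side, the region nearest to a Tgif1 start (chr17:71221372-71223246, 1875 bp) was listed under Mir1195, at a gap of 18486 bp.

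**Figure D3:**
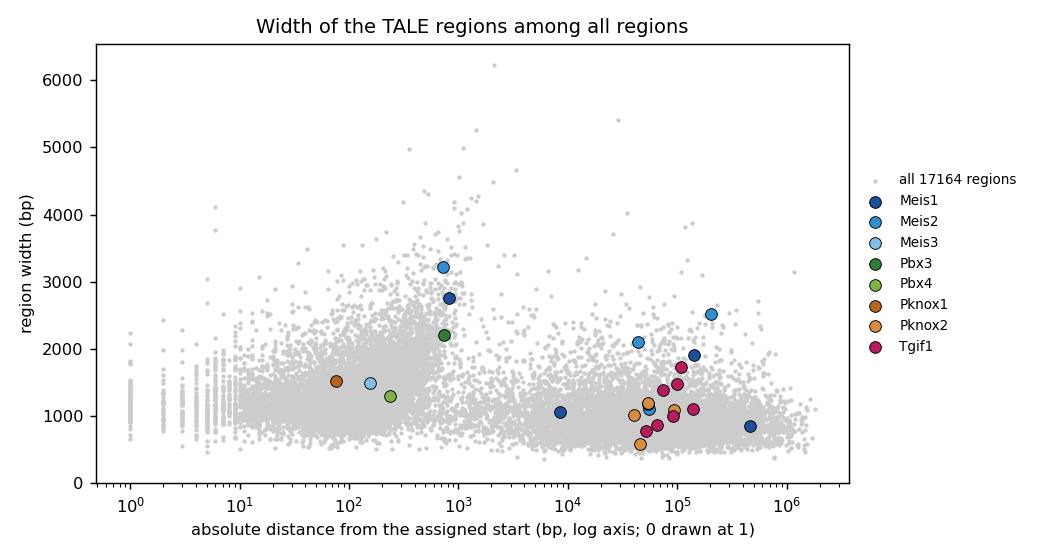
Region width (vertical axis, bp) against absolute distance from the assigned start (horizontal axis, bp, log axis) for all 17164 regions in gray and the 24 member regions in color. The start regions of Meis1, Meis2 and Pbx3 lie above 2000 bp, and far from starts the Meis2 regions of 2099 and 2512 bp stand above the other member regions.

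Widths of the members were compared with those of regions at a like distance, because regions at starts were wider in the whole list. The median width of the 24 regions was 1243 bp, against 1123 bp for all regions. Within 1 kb of a start the 6 member regions had a median of 1865.5 bp (range 1294 to 3217 bp), against 1294 bp for all. Between 10 and 100 kb the 12 regions had a median of 1096.5 bp against 950 bp, and beyond 100 kb the 5 regions had a median of 1736 bp (range 857 to 2512 bp) against 919 bp. Classed by the nearest annotated start of the same gene, 4 regions lay beyond 100 kb, with a median of 1421.5 bp, and all 17 stayed beyond 10 kb. Wide regions were those of a few genes. A width of at least 2 kb was reached by 3 of the 6 start regions (Meis1, Meis2 and Pbx3), against 9.97% of all regions within 1 kb, and by 2 of the 17 regions beyond 10 kb, against 2.08%. Both of the latter belonged to Meis2. Region width also moves with read depth, and its part in these values was not tested.

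**Figure D4:**
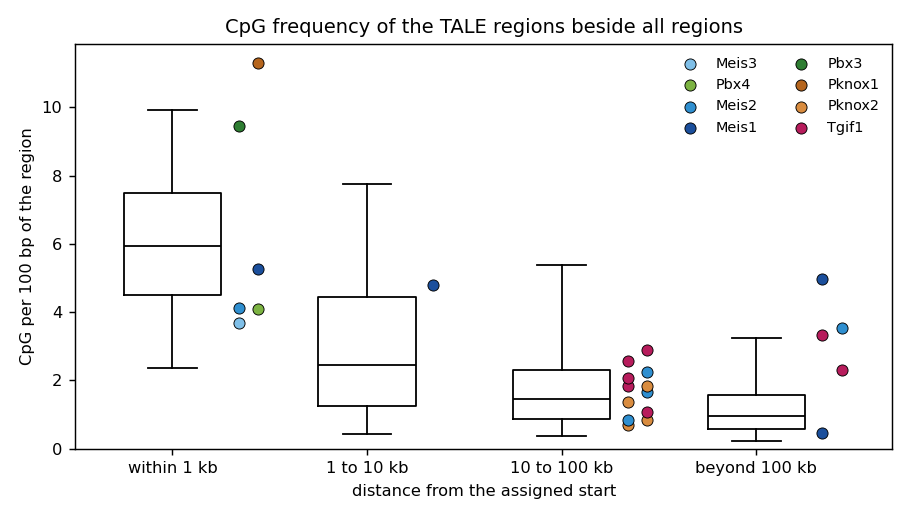
CpG per 100 bp of the region (vertical axis) by distance from the assigned start (horizontal axis), with boxes for the quartiles and median of all regions, whiskers at the 5th and 95th percentiles, and points for the 24 member regions. Beyond 100 kb, the Meis1 and Meis2 regions past the 3′ ends, at 4.97 and 3.54, and a Tgif1 region at 3.34 lie above the upper whisker.

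CpG frequency followed distance in the whole list, with medians of 5.93 per 100 bp within 1 kb and 0.963 beyond 100 kb. The 6 member regions at starts had a median of 4.69, lower than the list, and ranged from 3.69 at Meis3 to 11.3 at Pknox1. Beyond 100 kb the order was the opposite: the 5 member regions had a median of 3.34 and ranged from 0.467 to 4.97. The far Meis1 region was the only one of these 5 below the median of the list. Classed by the nearest annotated start of the same gene, 4 member regions lay beyond 100 kb, with a median of 2.82. The Tgif1 region at 139574 bp held 3.34 CpG per 100 bp, above 95.4% of the regions beyond 100 kb. A start rich in CpG did not always have a region. The starts of Pknox2 and Tgif1 had 6.99 and 6.19 CpG per 100 bp, more than those of Meis1 (4.4), Meis3 (4.6) and Pbx4 (5.19), which were accessible. The other accessible starts went the other way in part. Those of Pbx3 (14.7) and Pknox1 (12.9) were richer than both, and that of Meis2 (6.39) was richer than that of Tgif1 only. These are the values of the richest start of each gene. Among coding genes within 0.5 of the Pknox2 and Tgif1 values, 55.6% and 53.6% had a region within 1 kb. For Meis1, Meis3 and Pbx4 these shares were 48.9%, 50% and 50.7%, and for Pbx3, Pknox1 and Meis2 they were 59.1%, 66% and 55.1%. The Tgif1 start from which the deposited distances count had 2 CpG in the 300 bp of the RefSeq promoter table, above 14.1% of promoters.

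The central 300 bp of each region was searched on both strands for letters that TALE factors and the factors of this tissue bind. TGACAG is bound by Meis, Pknox and Tgif proteins, TGATTGACA by Pbx with Meis or Pknox, TGATTNAT by Pbx with Hox, CTAATG by Isl1 and AGATAA by GATA factors. A TGATTGACA followed by G also contains TGACAG. Among the 17 member regions beyond 10 kb, TGACAG occurred in 3 (Meis2 past the 3′ end, Pknox2 at 40063 bp and Tgif1 at 52312 bp), against 24.5% of all such regions, and TGATTGACA in 0, against 0.786%. At starts, TGACAG occurred in 1 of 6 member regions (Pbx3), against 14.4%. TGACAG was thus no more frequent in the far member regions than in the list.

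TGATTNAT was found in 2 of the 17, against 4.85% of all regions beyond 10 kb. These were the Meis2 region past the 3′ end and the Tgif1 region at 98697 bp. CTAATG was found in 1 of the 17 (Meis2 at 54049 bp), against 12%, and AGATAA in 2 of the 17, against 15.6%. The Tgif1 sequence printed above held 2 TGACAG and 2 AGATAA. A match is a string of letters and not a site shown to be bound.

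The space around the genes differed. The stretch of genome closer to the starts of a gene than to those of any other coding gene was 461 kb for Meis1, 745 kb for Meis2, 339 kb for Pbx3, 169 kb for Pknox2 and 187 kb for Tgif1, and its median over coding genes was 45.7 kb. The stretch of Pbx2 was only 5.91 kb. Per 100 kb of this stretch Tgif1 had 4.27 regions, more than 90.6% of coding genes, and Pknox2 had 2.37, more than 81.4%. Meis3, Pknox1 and Pbx4 had a single region each, in stretches of 36.9, 48.8 and 49.4 kb. Their values of 2.71, 2.05 and 2.02 per 100 kb therefore follow from the length of the stretch. Meis2 had 1.07, Meis1 0.651 and Pbx3 0.295. The values of Meis2, Meis1 and Pbx3 were above 66.7%, 59.5% and 53% of coding genes, whose median was 0. Per unit of space, Meis3 thus stood above Pknox2, and Meis2 and Meis1, which had several regions, stood below the genes Pknox1 and Pbx4 with 1 each. Within these stretches 3 regions upstream of Meis2 were listed under the noncoding gene 2810405F15Rik, 1 near Meis1 under 4933406G16Rik and 1 near Tgif1 under Mir1195, and 2 of the Meis1 regions lay outside its stretch. Of the 3 upstream of Meis2, the nearest to Meis2 lay 146 bp from the 2810405F15Rik start.

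Other genes of the superclass were counted in the same way. Of the 8 further TALE genes (Irx1 to Irx6, Mkx and Tgif2), 5 had a region, 3 had one within 1 kb and together they had 8, with a median of 1 per gene, as for the 9 members. Over all protein-coding genes, 49.3% had a region and 40.6% had one within 1 kb. Irx3, a regulator of the ventricular conduction system, had the most with 3, Tgif2 had 1 at its start, and Irx4, Irx5 and Irx6 had 0. Cofactors of Tgif1 were also counted. All 8 genes for Smads and corepressors that work with Tgif1 (Smad2, Smad3, Ski, Skil, Ctbp1, Ctbp2, Hdac1 and Sin3a) had a region within 1 kb of the start, against 40.6% of all protein-coding genes. They had 11 regions in all. The Skil region at the start was the widest of that group at 2628 bp.

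The list as a whole had 1.49 regions per gene, and 73.2% of its genes had 1. The tissue label was checked against marker genes by presence in the list. Of 10 heart and pharyngeal mesoderm markers 6 had a region, with 9 for Isl1, 5 for Mef2c and 4 for Fgf10, while Nkx2-5, Tbx5, Tbx1 and Tcf21 had 0. Markers of neural cells (3 of 4), endoderm (3 of 3), endothelium (3 of 4) and blood (1 of 3) were present as well. Of all protein-coding genes 49.3% had a region, so presence of a marker says little about the tissue. The list does not set the dissected tissue apart from its neighbors, and in which cell types the member regions were accessible was not tested.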

How the data were processed

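ATAC-Seq libraries of wt, Isl1-/- and Isl1Cre+/-/ Brg1fl/fl embryos were grouped by labelled genotype, and only the 3 wt libraries entered, as 1 deposited list. According to the methods of the study, the authors aligned reads to mm9 (bowtie2), filtered them (samtools), removed duplicates (Picard 1.136), called peaks without a model and with a fixed shift (MACS14), removed blacklisted peaks and kept peaks overlapping by at least 1 bp between replicates (bedtools 2.15). The deposited values are positions and distances in bp. They carry no count, signal or p-value. The rule assigning genes is not given in the sources used here. A fixed shift and depth both alter width, and edges of a shared region come from 1 library.

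Rows with equal coordinates were counted once. Annotation and sequence came from GENCODE on NCBIM37 (mm9). Coding genes were those with a curated RefSeq transcript, and of 11541 genes listed, 11158 matched by accession, 362 by symbol, 15 by synonym and 6 not at all. Regions were classed by the deposited distance, with limits of 1, 10 and 100 kb, and member regions were aligned to each other with BLAST 2.17.0 (E below 0.001). A gene's CpG at starts was the highest over its starts. Python 3.11.15, numpy 2.4.6, pandas 2.3.3, pysam 0.24.0, samtools 1.23.1 and matplotlib 3.10.9 were used. The distance class, motif and territory steps were tested on made-up inputs with known answers. The members, gene lists and motifs were chosen with earlier results of these data known. Named were all 9 members and their regions, the genes of the lists given, and genes assigned a region next to a member. The result of 1 list of partner genes is not reported here. Unmapped columns of per-sample values numbered 0. Alternatives were all rows, merged or wider regions, other distance limits and starts, a 500 bp motif window, autosomes, and leaving out the member with the most regions.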

Additional observations from a re-analysis of the deposited data

How the results depend on the processing

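Dropping regions narrower than the list's median width left 14 of the 24 member regions, still on 8 of the 9 genes. Meis2 kept 4 of them, Tgif1 3, Meis1 2 and Pknox2 1, so only Meis2 still had at least 4. With a limit of 500 bp in place of 1 kb, 3 members (Meis3, Pknox1 and Pbx4) had a region at the start, since the wide regions of Meis1, Meis2 and Pbx3 are centered 717 to 815 bp from the deposited start. The Pbx3 center was 351 bp from its nearest annotated start. The count was 6 with a limit of 2 kb and with the nearest annotated start. Assignment to the nearest coding start gave 27 regions, of which 8 were of Meis2, 8 of Tgif1 and 3 of Meis1. Without Tgif1 the share of member regions beyond 10 kb was 58.8% and the median width 1294 bp. In a window of 500 bp TGACAG was found in 25% of member regions and 28.6% of all regions, and AGATAA in 16.7% and 14.2%. Classing member regions by the nearest start of their own gene, chosen after seeing the data, changed the median width beyond 100 kb from 1736 to 1421.5 bp. The median CpG frequency beyond 100 kb changed from 3.34 to 2.82 per 100 bp.

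No paired analysis was possible because the wt regions are 1 list without values per library, and leaving out each library in turn was impossible too. Depth is unknown, so a gene without a region is not shown to be closed.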
